A study of Salmo trutta with 45 samples.

Results

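The mitochondrial ribosomal proteins are the nuclear-encoded proteins that build the ribosome inside mitochondria. Transcripts were taken as members where the zebrafish, human, mouse or other fish annotation deposited with them names a mitochondrial ribosomal protein, and the reads of transcripts with the same zebrafish gene identifier were summed. This gave 133 of the 67093 listed Trinity transcripts and 74 of the 32452 rows, a row being a zebrafish gene identifier or a transcript that has none. Only the identifier of betaine-homocysteine methyltransferase was split, into its member transcripts and the others. Of the 74 members, 48 belonged to the large subunit and 25 to the small subunit. The remaining member was *mrps36*, which carries the name but in mammals is a component of the 2-oxoglutarate dehydrogenase complex. Of the members, 50 rested on 1 transcript and 24 on more, and *mrps33* had the most, with 11.

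Mitochondrial ribosomes translate the small set of messenger RNAs encoded by mitochondrial DNA, all of which, in vertebrates, encode core subunits of the respiratory chain and ATP synthase. Their RNAs come from mitochondrial DNA, whereas all of their proteins are encoded in the nucleus, made in the cytosol and imported. The liver is rich in mitochondria, and the assembly of new respiratory complexes there depends on this translation.

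Liver RNA of juvenile female brown trout (*Salmo trutta*) was sequenced after 14 days of exposure in flow-through tanks. Roundup, a formulated herbicide, was given at 0.01 mg/L to LR fish, 0.5 mg/L to MR fish and 10 mg/L to HR fish, expressed as glyphosate acid. Glyphosate, its active ingredient, was given at 0.01 mg/L to LG fish and 10 mg/L to HG fish. Each of the 5 exposed groups held 6 fish, and they shared 12 control fish that received neither chemical. Per the study's methods each treatment had replicate tanks and the controls joined separate control groups, but the labels give neither the tank nor the control group of a fish, so p-values here measure the spread between fish and cannot separate a tank from a treatment. A glyphosate group of 0.5 mg/L (MG, 3 fish) was not analysed here.

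Reads in listed transcripts numbered between 10223638 and 33291845 per fish, with group medians from 15506362 in HG fish to 18507178 in MR fish and a median of 16753484 in controls. Each library was counted as 1 fish, since no pair within a group came close to sampling noise: the smallest chi-square per degree of freedom between fish of 1 group was 8.99. Hepatocyte markers, such as transferrin and the fibrinogen chains, summed to between 97658 and 178133 CPM in each of the 42 fish, so the libraries carry the labelled tissue. In whole-liver RNA, fewer cells of a type and less RNA per cell cannot be told apart. CPM are reads scaled to a common library size and are not divided by transcript length, so levels are compared between fish and not between genes.

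In control livers the 71 members whose transcripts stood in all 5 deposited tables had a median level of 4.40 CPM, and 68 of them averaged 1 CPM or more. Among the large-subunit proteins, *mrpl12* had the most reads, with a mean level of 55.1 ± 9.75 CPM (SD, n = 12) and a range of 38.8 to 77.1 CPM. MRPL12 belongs to the stalk of the large subunit, and in human cells it also binds the mitochondrial RNA polymerase. It alone took 13.2% of all member reads in controls. Next came *mrpl16*, a large-subunit protein of the bacterial L16 family, at 16.1 ± 2.30 CPM, and *mrpl10*, which anchors the stalk, at 12.2 ± 6.65 CPM. The level of *mrpl10* was the most uneven of these, with a coefficient of variation between control fish of 54.7%. Its Trinity component also held 3 transcripts annotated by their zebrafish identifier as betaine-homocysteine methyltransferase (*bhmt*). Those 3 transcripts form a member of their own, whose level followed that of *mrpl10* over the 42 fish with a Pearson correlation of 0.891, so reads may be split between the pair and both are uncertain.

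Of the small-subunit proteins, *mrps24* at 14.6 ± 1.56 CPM and *mrps16* at 14.1 ± 2.44 CPM (SD, n = 12 controls) had the most reads. They are homologues of bacterial ribosomal proteins S3 and S16. The level of *mrps24* was among the steadiest, with a coefficient of variation of 10.7%. It came from transcripts of separate Trinity components, at 10.1 ± 1.28 and 4.43 ± 1.02 CPM in controls. For *mrpl12* the second component was a small one, with 53.9 ± 9.51 CPM in the main component and 1.22 ± 0.614 CPM in the other. At the low end stood the *mrpl33* transcript seq1 at 0.902 ± 0.248 CPM, *mrps2* at 0.872 ± 0.338 CPM and *mrpl21* at 0.863 ± 0.301 CPM. The *mrpl21* level counts only the transcript listed in all 5 tables, and the LR table lacks its other one. Its 2 transcripts together had a mean of 29.2 reads per control library. The *mrpl33* transcript seq1 rested on a mean of only 16.3 reads per control library, *mrps2* on 15.3 and *mrpl12* on 1000.2.

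The members varied little between untreated fish. Their median coefficient of variation over the 12 controls was 22.4%, with quartiles of 16.7% and 28.7%. The 17183 rows of like level (1.12 to 13.2 CPM) had a median of 27.9%. Respiratory chain and ATP synthase genes had a median of 16.0% and cytosolic ribosomal proteins one of 15.9%, but these 2 lists have other levels, and counting error alone differs with level.

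Summed over the 71 members, the level per fish was close to even over the doses. On the scale of the 42 fish the sum averaged 416.7 ± 30.5 CPM in controls (SD, n = 12), 410.3 ± 30.4 CPM in LR, 439.9 ± 52.3 CPM in MR and 405.1 ± 23.9 CPM in HR fish (n = 6 each). For glyphosate it averaged 406.6 ± 45.5 CPM in LG and 424.6 ± 21.2 CPM in HG fish (n = 6 each). Every group mean thus lay within 1 SD of the control mean, and the ranges of all groups overlapped. The lowest, median and highest sums were 376, 416 and 472 CPM in controls. They were 374, 405 and 453 CPM in LR, 341, 452 and 489 CPM in MR, and 378, 409 and 429 CPM in HR fish. They were 355, 406 and 486 CPM in LG and 397, 425 and 452 CPM in HG fish. The lowest and the highest fish of the whole series were both MR fish, fish 1 and fish 2.

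**Figure D1:**
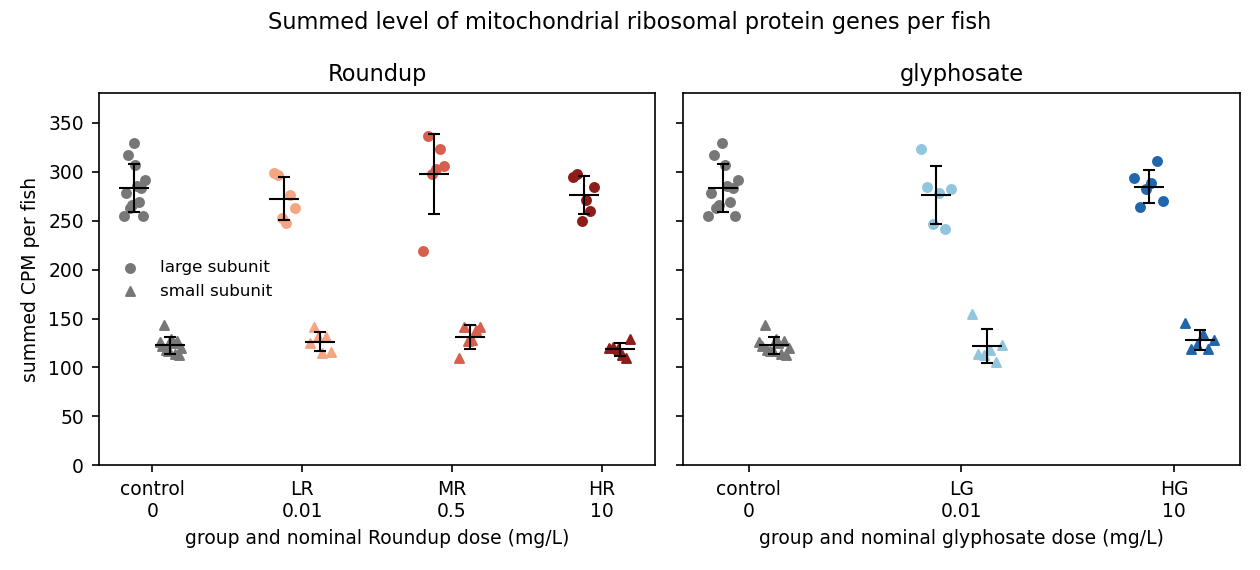
Summed CPM per fish (vertical axes, linear from 0) of the 46 large-subunit members (circles) and the 24 small-subunit members (triangles), with the Roundup doses on the left and the glyphosate doses on the right, each after the same 12 controls. Points are fish, and the lines with bars are group means ± SD. The groups overlap, and MR fish 1 lies lowest in the large subunit at 219 CPM.

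By subunit the picture was the same. The 46 large-subunit members in all 5 tables summed to 283.3 ± 24.4 CPM in controls, 272.6 ± 21.7 CPM in LR, 297.5 ± 41.1 CPM in MR and 276.0 ± 19.3 CPM in HR fish. With glyphosate they summed to 276.1 ± 29.6 CPM in LG and 284.9 ± 17.0 CPM in HG fish. The 24 small-subunit members summed to 122.6 ± 8.38 CPM in controls, 126.5 ± 10.1 CPM in LR, 130.8 ± 12.2 CPM in MR and 118.6 ± 6.86 CPM in HR fish. With glyphosate the small-subunit sums were 121.5 ± 17.4 CPM in LG and 128.1 ± 10.4 CPM in HG fish. No subunit total left the spread of the control fish in its group mean.

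Each exposed group was then compared with the controls gene by gene, to ask which members responded to the chemical at that dose. The test was the quasi-likelihood F-test of edgeR, with p-values adjusted (Benjamini-Hochberg) over all rows of the table and a call at an adjusted p under 0.1. No member was called in any of the 5 comparisons with controls or in the 4 comparisons between exposed groups. The exact test of edgeR and the Wald test of DESeq2 also called 0 members in all 9. Among all rows, the exact test called between 17 and 363 and DESeq2 between 16 and 361 in the comparisons with controls. All fold changes below are on the log2 scale. The 5 comparisons share the 12 controls, so a member that sits high or low in the controls moves all of them, and they are not independent of each other.

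In LR fish, 0 of 72 members tested were called, against 6 of 29842 rows (0.0201%). An unadjusted p under 0.05 was reached by 2 members with higher levels (4.56% of all rows) and 1 with a lower level (4.29% of all rows). The member with the lower level was *mrpl21*, which was listed only through controls with high levels and so cannot support this count. Of the 72 log2 fold changes 33 were above 0, against 49.8% of all rows, and their median was -0.01, against -0.00 over all rows. The 95% interval of the fold change lay within 2-fold in either direction for 71 of the 72 members, and within 1.5-fold for 46. These intervals hold for 1 member at a time. LR and control fish overlapped in every member, and did not in 0.057% of all rows. Of the 13 hepatocyte markers 12 were above 0 in LR fish, with a median log2 fold change of 0.12. Higher levels at an unadjusted p under 0.05 were reached by 2 of them (4.56% of all rows). Of the 10 exocrine pancreas markers 9 were above 0 (median 0.42), and all 3 biliary markers were below 0 (median -0.22). Only 8 of the pancreas markers were tested in HR and LG fish, against the same controls. The others were thus listed only with the help of LR fish, which favours values above 0. The part of these cells in the level of the members was not tested.

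*mrpl17*, a large-subunit protein of the bacterial L17 family, had the smallest p of the members in LR fish. Its level was 3.21, 4.23 and 6.46 CPM (lowest, median and highest) in LR fish, against 1.69, 2.96 and 5.42 CPM in controls. All 6 LR fish lay above the control median, but the groups overlapped. The log2 fold change was 0.55 (SE 0.20, 95% interval 0.14 to 0.96), with an unadjusted p of 0.0105 and an edgeR adjusted p of 0.424, and an exact 2-sided permutation test of mean log2 CPM gave p = 0.0137. *mrpl21*, of the bacterial L21 family, was at 0.369, 0.492 and 0.869 CPM in LR fish, against 0.447, 0.856 and 1.43 CPM in controls. Its log2 fold change was -0.62 (SE 0.28, adjusted p = 0.537 by edgeR), and 1 of the 6 LR fish lay above the control median. The LR table lists 1 *mrpl21* transcript and the other tables list another one as well. Every listed transcript exceeded 1 CPM in at least 3 fish of its table, and in this *mrpl21* transcript only controls did so. It was thus listed only through controls with high levels, so its values cannot support a lower level in LR fish. The *mrpl33* transcript seq1 was at 0.524, 0.663 and 0.696 CPM in LR fish, against 0.436, 0.894 and 1.32 CPM in controls, with a log2 fold change of -0.47 (SE 0.23, edgeR adjusted p = 0.577). All 6 LR fish lay below the control median and inside the control range. In the *mrpl33* transcript seq1, too, only controls exceeded 1 CPM. It was listed only through controls with high levels, so these values cannot support a lower level in LR fish.

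Of the small subunit, *mrps6*, of the bacterial S6 family, was at 2.08, 3.10 and 3.68 CPM in LR fish, against 0.999, 2.29 and 3.04 CPM in controls. Its log2 fold change was 0.43 (SE 0.19, unadjusted p = 0.0322, edgeR adjusted p = 0.513). The member with the most reads, *mrpl12*, was at 34.9, 49.0 and 57.3 CPM in LR fish, against 38.6, 52.8 and 76.5 CPM in controls. Its log2 fold change was -0.23 (SE 0.14, edgeR adjusted p = 0.671). The groups overlapped in *mrps6* and in *mrpl12*. The median log2 fold change was -0.05 over the 47 large-subunit members tested and 0.03 over those of the small subunit.

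In MR fish, 0 of 72 members were called and 0 of 30202 rows (0.0%), while 3060 rows had an unadjusted p under 0.05. That level was reached by 4 members with higher levels (5.81% of all rows) and 0 with lower levels (4.32% of all rows). Of the 72 log2 fold changes 56 were above 0, against 50.8% of all rows, and the median was 0.11, against 0.01 over all rows. It was 0.12 for the large and 0.07 for the small subunit. For 70 members the 95% interval lay within 2-fold, and for 43 within 1.5-fold. MR and control fish overlapped in every member, and did not in 0.0166% of all rows.

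*mrpl17* was at 3.45, 4.37 and 5.90 CPM in MR fish, against 1.73, 3.01 and 5.53 CPM in controls. All 6 MR fish lay above the control median, and the log2 fold change was 0.49 (SE 0.19, unadjusted p = 0.0171, edgeR adjusted p = 0.379). *mrpl38*, a large-subunit protein that bacteria lack, was at 7.78, 8.57 and 10.9 CPM in MR fish, against 6.05, 7.66 and 9.66 CPM in controls. Again all 6 MR fish lay above the control median with overlapping ranges, and the log2 fold change was 0.25 (SE 0.12, edgeR adjusted p = 0.490).

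*mrps17*, the homologue of the bacterial RNA-binding protein S17, had the smallest unadjusted p of the members in MR fish. Its level was 1.56, 2.27 and 4.20 CPM in MR fish, against 1.26, 1.76 and 2.14 CPM in controls, and 4 of the 6 MR fish lay above the control median. The log2 fold change was 0.58 (SE 0.20, 95% interval 0.16 to 0.99, unadjusted p = 0.00865, edgeR adjusted p = 0.327). *mrps6* was at 1.43, 3.31 and 5.40 CPM in MR fish, against 1.02, 2.34 and 3.10 CPM in controls, with a log2 fold change of 0.53 (SE 0.23, edgeR adjusted p = 0.426). MR fish 1 had the highest *mrps17*, *mrps6* and *mrpl17* levels of its group. It also had the lowest *mrpl12*, at 24.9 CPM on the scale of the 42 fish. Without this fish the log2 fold change was 0.41 for *mrps17*, 0.35 for *mrps6* and 0.40 for *mrpl17*.

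Fibroblast and stellate cell markers moved with the MR group. Of the 6 fibroblast and stellate cell markers tested, 5 had an unadjusted p under 0.05 with lower levels (4.32% of all rows), with a median log2 fold change of -0.68, and their summed level was 179 to 348 CPM in MR fish, against 346 to 544 CPM in controls. The exocrine pancreas markers summed to 33.5 to 72.1 CPM in MR fish, against 39.0 to 148 CPM in controls, and the leukocyte markers to 129 to 272 CPM, against 140 to 361 CPM. MR and control fish overlapped in both sums. The pancreas value of 148 CPM came from control fish 8, and the next control was at 78.2 CPM. Hepatocyte markers had a median log2 fold change of 0.09, and 12 of 13 were above 0. The part of these cells in the level of the members was not tested.

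In HR fish, 0 of 71 members were called, against 2 of 30163 rows (0.00663%). No member had a higher level at an unadjusted p under 0.05 (4.54% of all rows), and 1 had a lower one (3.44% of all rows). Of the 71 log2 fold changes 26 were above 0, against 49.9% of all rows, with a median of -0.06, against -0.00 over all rows. It was -0.07 for the large and -0.03 for the small subunit. For all 71 members the 95% interval lay within 2-fold, and for 50 it lay within 1.5-fold. HR and control fish overlapped in every member, and did not in 0.0464% of all rows. Of the 8 leukocyte markers 7 were above 0 in HR fish, 2 of them at an unadjusted p under 0.05, with a median log2 fold change of 0.26 and a summed level of 158 to 315 CPM in HR fish, against 140 to 361 CPM in controls. Their part in the level of the members was not tested.

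The member with the smallest p was *mrps14*, a small-subunit homologue of bacterial S14. It was at 2.41, 3.45 and 4.35 CPM in HR fish, against 3.32, 4.25 and 5.81 CPM in controls, and 1 of 6 HR fish lay above the control median. The log2 fold change was -0.35 (SE 0.15, 95% interval -0.66 to -0.04, unadjusted p = 0.0309, edgeR adjusted p = 0.574, exact permutation p = 0.0185). The next in order was *mrpl48*, a large-subunit protein, at 2.77, 4.49 and 4.98 CPM in HR fish, against 4.19, 5.01 and 6.27 CPM in controls (log2 fold change -0.23, SE 0.13, edgeR adjusted p = 0.690). It was followed by *mrp63*, also of the large subunit, with a log2 fold change of -0.37 (SE 0.21, edgeR adjusted p = 0.714), and by *mrps15*, of the small subunit, with -0.29 (SE 0.17, edgeR adjusted p = 0.728). All 6 HR fish lay below the control median in *mrpl48* and *mrp63*, and 1 of them, HR fish 4 in *mrpl48*, lay below the control range.

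Glyphosate alone gave a like result. In LG fish, 0 of 73 members were called and 0 of 30606 rows (0.0%), and 2302 rows had an unadjusted p under 0.05. That level was reached by 2 members with higher levels (5.01% of all rows) and 1 with a lower level (2.52% of all rows). Among the 2 was the *mrpl33* transcript seq12, which was listed only through LG fish with high levels and so cannot support this count. Of the 73 log2 fold changes 35 were above 0, against 51.3% of all rows, with a median of -0.01, against 0.01 over all rows. Intervals lay within 2-fold for 70 members and within 1.5-fold for 48. LG and control fish overlapped in every member, and did not in 0.0131% of all rows. Leukocyte markers had a median log2 fold change of 0.22 in LG fish, with 7 of 8 above 0, and summed to 118 to 327 CPM in LG fish, against 140 to 361 CPM in controls. Of the 8 exocrine pancreas markers 7 were below 0, with a median of -0.42 and 0 at an unadjusted p under 0.05. The part of these cells in the level of the members was not tested.

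*mrpl3*, the homologue of bacterial L3, which reaches towards the peptidyl transferase centre, was at 3.32, 5.84 and 9.75 CPM in LG fish, against 3.51, 4.51 and 5.41 CPM in controls. LG fish 1 gave the highest value, and the log2 fold change of 0.39 (SE 0.17, edgeR adjusted p = 0.602) was 0.20 without it. The same fish had the highest *mrps6* and *mrps17* of the 42 fish, at 6.51 and 4.12 CPM. LG fish 1 also lay farthest of the 42 from the control means over all rows above 1 CPM. Its median absolute log2 deviation was 0.617 over these rows and 0.406 over the members. The *mrpl33* transcript seq12 was at 0.302, 1.01 and 1.58 CPM in LG fish, against 0.179, 0.652 and 0.939 CPM in controls (log2 fold change 0.74, SE 0.33, edgeR adjusted p = 0.625). Every listed transcript exceeded 1 CPM in at least 3 fish of its table, and no control did so here. It was thus listed only through LG fish with high levels, so its values cannot support a higher level in LG fish. *mrps36* was at 8.09, 8.83 and 11.5 CPM in LG fish, against 8.85, 10.9 and 14.3 CPM in controls. Its log2 fold change was -0.28 (SE 0.12, edgeR adjusted p = 0.630), and 1 of 6 LG fish lay above the control median. *mrpl43*, a large-subunit protein, had a log2 fold change of -0.28 (SE 0.15, edgeR adjusted p = 0.704).

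In HG fish, 0 of 74 members were called and 0 of 30790 rows (0.0%), and 2131 rows had an unadjusted p under 0.05. That level was reached by 5 members with higher levels (3.72% of all rows) and 0 with lower levels (3.2% of all rows). Among the 5 was the *mrpl33* transcript seq12, which was listed only through HG fish with high levels and so cannot support this count. Of the 74 log2 fold changes 54 were above 0, against 52.1% of all rows, with a median of 0.07, against 0.01 over all rows. It was 0.06 for the large and 0.08 for the small subunit. Within 2-fold lay the 95% intervals of 72 members and within 1.5-fold those of 48. HG and control fish overlapped in every member, and did not in 0.00974% of all rows. Leukocyte markers moved with this group too: 7 of 8 were below 0, with a median log2 fold change of -0.26, and they summed to 134 to 219 CPM in HG fish, against 140 to 361 CPM in controls. All 4 endothelial markers were below 0 (median -0.32), 1 of them at an unadjusted p under 0.05 (3.2% of all rows). Of the 10 exocrine pancreas markers 9 were above 0, with a median of 0.67 and 0 at that level of p. Only 8 of the pancreas markers were tested in HR and LG fish, against the same controls. The others were thus listed only with the help of HG fish, which favours values above 0. The part of these cells in the level of the members was not tested.

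Of the large subunit, the *mrpl33* transcript seq12 was at 0.845, 0.990 and 1.49 CPM in HG fish, against 0.180, 0.658 and 0.948 CPM in controls. Its log2 fold change was 0.79 (SE 0.29, edgeR adjusted p = 0.649), and it rested on a mean of 10.4 reads per control library. Every listed transcript exceeded 1 CPM in at least 3 fish of its table, and no control did so here. The transcript thus entered this table only through HG fish with high levels, so its values cannot support a higher level in HG fish. *mrpl54*, a large-subunit protein without a bacterial homologue, was at 2.01, 3.66 and 4.68 CPM in HG fish, against 1.76, 2.76 and 3.79 CPM in controls (log2 fold change 0.40, SE 0.19, edgeR adjusted p = 0.712). The fifth member at this level, *mrpl45*, which in mammals helps to hold the ribosome at the inner membrane, is named after its values were seen. It was at 4.68, 6.51 and 8.60 CPM in HG fish, against 2.89, 4.58 and 7.05 CPM in controls (log2 fold change 0.37, SE 0.18, edgeR adjusted p = 0.718). All 6 HG fish lay above the control median in *mrpl45*, and 5 of 6 in *mrpl54*.

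Of the small subunit, *mrps17* was at 1.88, 2.45 and 2.85 CPM in HG fish, against 1.29, 1.80 and 2.19 CPM in controls. All 6 HG fish lay above the control median, and the log2 fold change was 0.44 (SE 0.15, 95% interval 0.12 to 0.76, unadjusted p = 0.00969, edgeR adjusted p = 0.638, exact permutation p = 0.00366). *mrps33*, a small-subunit protein that bacteria lack, was at 4.74, 6.47 and 7.48 CPM in HG fish, against 3.67, 4.59 and 7.27 CPM in controls (log2 fold change 0.33, SE 0.15, edgeR adjusted p = 0.711). The groups overlapped in both.

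**Figure D2:**
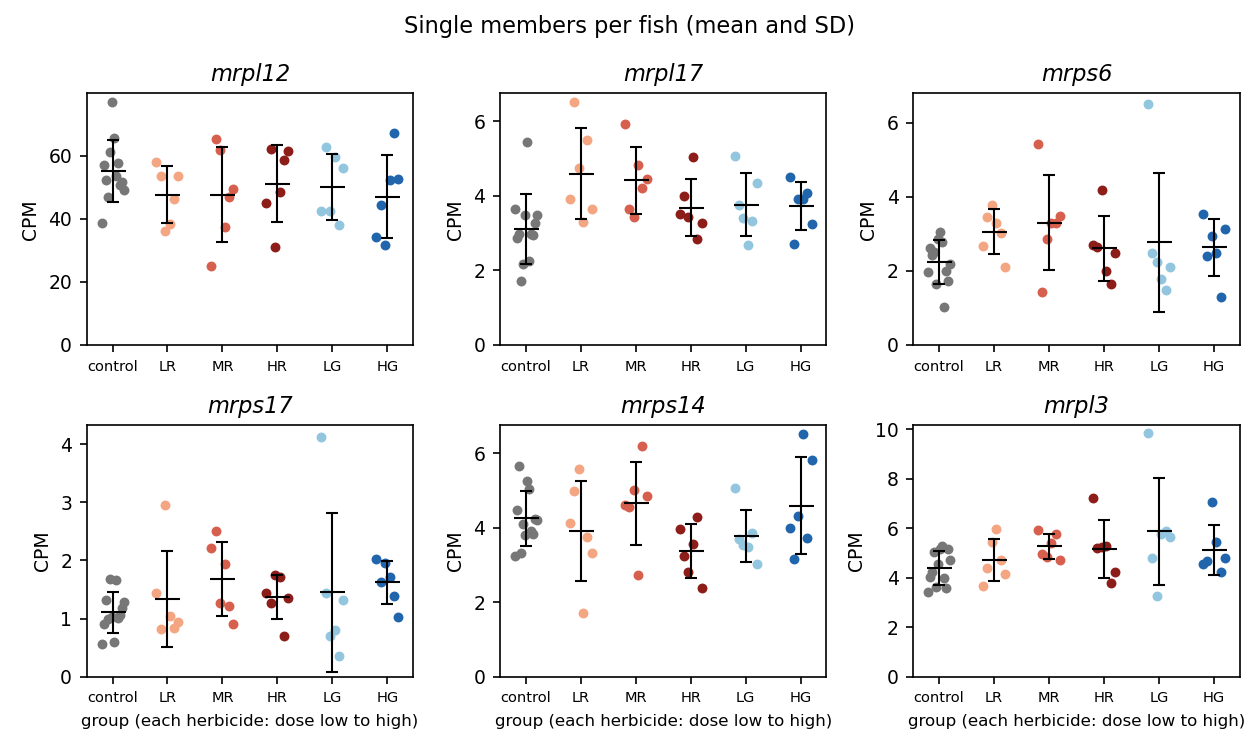
Level of 6 members in each fish (vertical axes, CPM on the scale of the 42 fish and of transcripts listed in all tables) by group (horizontal axes, with the doses of each herbicide from low to high after the controls). Points are fish, and the lines with bars are group means ± SD. The exposed groups overlap the controls in every panel, and single fish such as MR fish 1 (*mrpl12* at 24.9 CPM) and LG fish 1 (*mrps17* at 4.12 CPM) stand at the edge of their groups.

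Which transcripts a table lists bears on several of these values. For 7 members (*mrpl21*, the *mrpl33* transcript seq12, *mrpl52*, *mrps17*, *mrps18b*, *mrps31* and *mrps33*) the listed transcripts differ between the 5 tables, and for the other 67 they are the same. A second *mrps17* transcript is listed in the MR and HG tables only, the tables in which *mrps17* had its smallest p. With the transcript listed in all tables, and all groups fitted together, the log2 fold change of *mrps17* was 0.58 (SE 0.32, unadjusted p = 0.0736) in MR and 0.55 (SE 0.32, unadjusted p = 0.0950) in HG fish. *mrps33* then had a log2 fold change of 0.24 with an unadjusted p of 0.206 in HG fish. The *mrpl33* transcript seq12 is listed in the LG and HG tables alone, and has no value in the others. In both, only exposed fish exceeded 1 CPM, and every listed transcript did so in at least 3 fish. With the *mrpl33* transcripts summed and those annotated as *bhmt* left out, the members at an unadjusted edgeR p under 0.05 numbered 2 in LG and 4 in HG fish. Without this change they numbered 3 and 5.

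**Figure D3:**
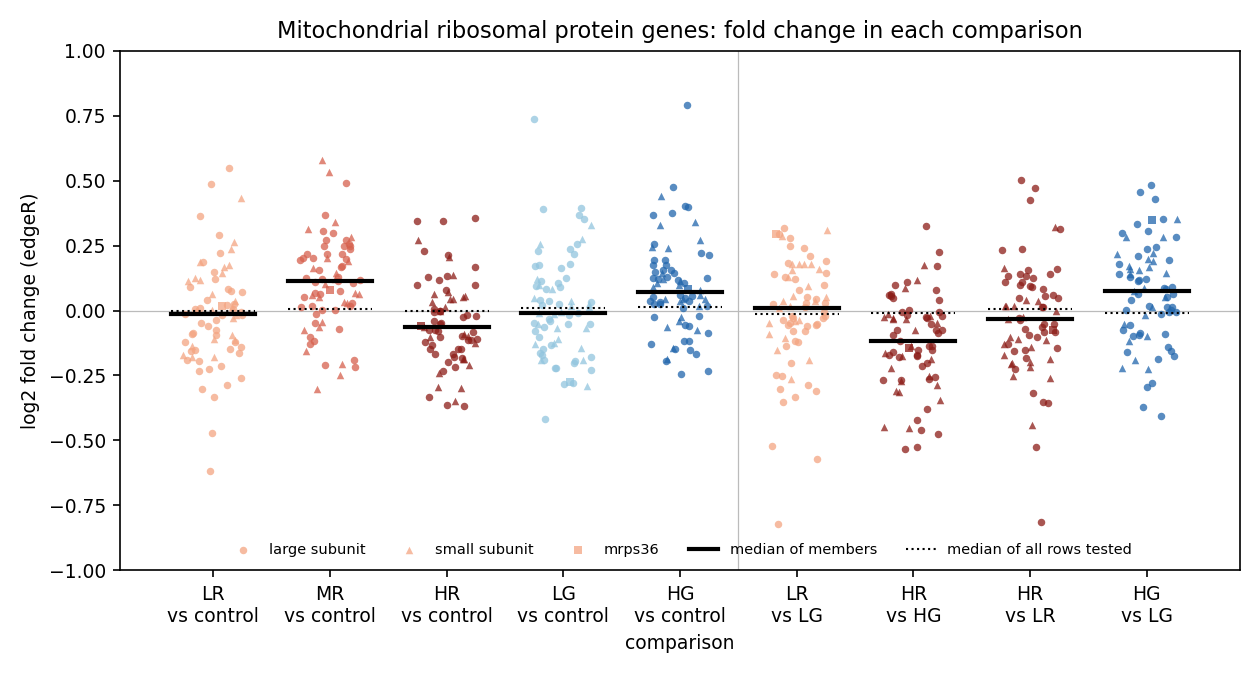
Log2 fold change of each member (vertical axis) in the 5 comparisons with controls and, right of the line, the 4 comparisons between exposed groups (horizontal axis, named as the numerator over the denominator). Circles are large-subunit members, triangles small-subunit members and the square *mrps36*, and the solid and dotted bars are the medians of the members and of all rows tested. Against controls the medians of the members lie between -0.06 in HR and 0.11 in MR fish, and the lowest of all is -0.12 in HR over HG fish.

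The 2 chemicals were compared at matched doses, which gave 2 pairs of groups, with p-values adjusted over all rows within each pair. At 0.01 mg/L, 0 of 72 members and 0 of 29341 rows (0.0%) were called between LR and LG fish, and 748 rows had an unadjusted p under 0.05. No member reached that level with a higher level in LR fish (1.08% of all rows), and 2 did with a lower one (1.47% of all rows). Of the log2 fold changes (LR over LG) 37 were above 0, against 47.7% of all rows, with a median of 0.01, against -0.01 over all rows. The 95% interval lay within 2-fold for 65 members and within 1.5-fold for 30, and the intervals of the others reached further.

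The *mrpl33* transcript seq1 was at 0.511, 0.651 and 0.683 CPM in LR fish, against 0.896, 1.09 and 1.43 CPM in LG fish. It was the only member whose groups did not overlap in any comparison, against 0.109% of all rows in this one. The log2 fold change was -0.82 (SE 0.22, 95% interval -1.29 to -0.35, unadjusted p = 0.00205), the edgeR adjusted p was 1.0, and the exact permutation p was 0.00216, the smallest that 6 against 6 fish allow. The *mrpl33* transcript seq10, of the same Trinity component, overlapped, at 0.830 to 2.03 CPM in LR and 0.576 to 2.18 CPM in LG fish. With the *mrpl33* transcripts summed and those annotated as *bhmt* left out, 1 member had an unadjusted edgeR p under 0.05, against 2 without this change. *mrp63* was at 1.04, 1.17 and 2.16 CPM in LR fish, against 1.52, 1.79 and 3.54 CPM in LG fish (log2 fold change -0.57, SE 0.27, edgeR adjusted p = 1.0).

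At 10 mg/L, 0 of 71 members and 0 of 29483 rows (0.0%) were called between HR and HG fish, and 1707 rows had an unadjusted p under 0.05. No member reached that level with a higher level in HR fish (2.8% of all rows), and 2 did with a lower one (2.99% of all rows). Of the 71 log2 fold changes (HR over HG) 15 were above 0, against 48.7% of all rows, and the median was -0.12, against -0.01 over all rows. It was -0.09 for the large and -0.15 for the small subunit, where 3 of 24 were above 0. The 95% interval lay within 2-fold for 66 members and within 1.5-fold for 40. The groups overlapped in every member, and did not in 0.363% of all rows. Leukocyte markers moved with this difference: all 8 were above 0 and 5 had higher levels at an unadjusted p under 0.05 (2.8% of all rows), with a median log2 fold change of 0.48, and they summed to 158 to 315 CPM in HR fish, against 134 to 219 CPM in HG fish. Of the 8 exocrine pancreas markers 7 were below 0, with a median of -0.56 and 0 at that level of p. No part of these cells in the level of the members was tested. *mrpl32*, a large-subunit protein that in yeast and mice is cut to its mature form inside the mitochondrion, was at 1.66, 2.61 and 3.42 CPM in HR fish, against 3.19, 3.67 and 4.35 CPM in HG fish. Its log2 fold change was -0.53 (SE 0.19, 95% interval -0.95 to -0.12, edgeR adjusted p = 0.834). *mrpl54* was at 2.14, 2.63 and 2.85 CPM in HR fish, against 1.99, 3.63 and 4.67 CPM in HG fish (log2 fold change -0.48, SE 0.21, edgeR adjusted p = 0.848).

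The highest and lowest doses of each chemical were compared in the same way. Between HR and LR fish, 0 of 71 members and 0 of 29184 rows (0.0%) were called, and 850 rows had an unadjusted p under 0.05. That level was reached by 1 member with a higher level in HR fish (1.58% of all rows) and 2 with a lower one (1.33% of all rows). There were 32 members above 0, against 51.2% of all rows, with a median log2 fold change of -0.03, against 0.01 over all rows. The 95% interval lay within 2-fold for 67 members and within 1.5-fold for 42, and the groups overlapped in every member (0.117% of all rows did not). *mrps18a*, a large-subunit protein despite its name, had the higher level, at 1.62, 2.26 and 3.69 CPM in HR fish, against 1.36, 1.67 and 1.93 CPM in LR fish (log2 fold change 0.50, SE 0.21, edgeR adjusted p = 1.0). *mrpl32* (-0.53, SE 0.21) and *mrpl49*, a large-subunit protein (-0.81, SE 0.35), had the lower levels, both with an edgeR adjusted p of 1.0.

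Between HG and LG fish, 0 of 73 members and 0 of 29683 rows (0.0%) were called, and 1706 rows had an unadjusted p under 0.05. That level was reached by 3 members with higher levels in HG fish (2.61% of all rows) and 0 with lower ones (3.13% of all rows). There were 48 members above 0, against 48.4% of all rows, with a median log2 fold change of 0.07, against -0.01 over all rows, and the median was 0.15 without LG fish 1. The 95% interval lay within 2-fold for 67 members and within 1.5-fold for 28, and the groups overlapped in every member (0.276% of all rows did not). Markers of other cells moved here too: 7 of 8 leukocyte markers were below 0, 5 of them at an unadjusted p under 0.05 (3.13% of all rows), with a median log2 fold change of -0.50, while 1 was above 0 at that level of p (2.61% of all rows). They summed to 134 to 219 CPM in HG fish, against 118 to 327 CPM in LG fish. All 4 endothelial markers were below 0 (median -0.28), and 7 of 8 exocrine pancreas markers were above 0 (median 1.23), with none at that level of p, and the part of these cells was not tested. *mrpl15*, the homologue of bacterial L15, was at 8.25, 9.55 and 12.0 CPM in HG fish, against 5.62, 7.80 and 8.39 CPM in LG fish. All 6 HG fish lay above the LG median, and the log2 fold change was 0.43 (SE 0.16, edgeR adjusted p = 0.843, exact permutation p = 0.00433). The other members were *mrpl43* (0.48, SE 0.18) and *mrps36* (0.35, SE 0.15), both with an edgeR adjusted p of 0.843.

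No stalk protein was called at any dose. *mrpl12* had log2 fold changes of -0.23 in LR, -0.22 in MR and -0.12 in HR fish, and of -0.15 in LG and -0.23 in HG fish, with edgeR adjusted p-values between 0.671 and 0.906. On the scale of the 42 fish, its lowest value was 36.02 CPM in LR, 24.89 CPM in MR and 30.91 CPM in HR fish, and 38.05 CPM in LG and 31.76 CPM in HG fish, each below the lowest control at 38.77 CPM. *mrpl10* had log2 fold changes between -0.09 in LR and 0.03 in HG fish, with intervals as wide as -0.70 to 0.52 in LR fish. All of these share the 12 controls.

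Other genes of mitochondrial translation were read from lists. The 6 mitoribosomal proteins that carry other names (*dap3*, *ptcd3*, *ict1*, *gadd45gip1*, *chchd1* and *aurkaip1*) had median log2 fold changes of -0.07 in LR, 0.00 in MR and -0.11 in HR fish, and of -0.10 in LG and -0.06 in HG fish. None had an unadjusted p under 0.05. *dap3*, a GTP-binding protein of the small subunit, had a log2 fold change of -0.05 (SE 0.11) in LR and -0.11 (SE 0.09) in HR fish.

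The mitochondrial translation factors had medians of 0.10 in LR, 0.13 in MR and 0.00 in HR fish, and of 0.04 in LG and -0.01 in HG fish. None was called. In MR fish 3 of 11 had higher levels at an unadjusted p under 0.05 and 0 lower ones, against 5.81% and 4.32% of all rows: *tsfm*, an elongation factor (0.50, SE 0.23), *oxa1l*, which inserts newly made proteins into the inner membrane (0.39, SE 0.16), and *lrpprc*, which stabilises mitochondrial messenger RNAs (0.38, SE 0.14), with edgeR adjusted p-values from 0.366 to 0.477. The elongation factor *gfm1* had log2 fold changes of 1.29 (SE 0.46, edgeR adjusted p = 0.423) in LR and 1.08 (SE 0.46, edgeR adjusted p = 0.556) in HR fish. Of the factors 12 were tested in LR and HR fish and 11 in LG fish. *gfm1* appears to be the one not listed in LG fish, since no factor exceeded 0.25 in LR over LG fish. With the same controls in each table, its listing in LR and HR fish would have needed exposed fish over 1 CPM. These *gfm1* values thus cannot support a higher level. The initiation factor *mtif3* had -0.59 (SE 0.25) in LG and -0.72 (SE 0.25, edgeR adjusted p = 0.638) in HG fish.

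Assembly and ribosomal RNA factors had median log2 fold changes of 0.05, -0.03 and -0.01 in LR, MR and HR fish, and of 0.02 and -0.07 in LG and HG fish. The mitochondrial aminoacyl-tRNA synthetases, which charge tRNAs, had medians of 0.17, -0.14 and -0.02 in LR, MR and HR fish, and of 0.09 and -0.05 in LG and HG fish. In these lists an unadjusted p under 0.05 was reached by at most 2 members in any group, and no member was called.

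Genes of mitochondrial transcription, replication and biogenesis had medians of 0.10 in LR, 0.12 in MR and -0.11 in HR fish, and of 0.02 in LG and -0.11 in HG fish. In LR fish 2 of 18 had higher and 3 lower levels at an unadjusted p under 0.05, against 4.56% and 4.29% of all rows, and in HR fish 0 of 19 had higher and 4 lower levels, against 4.54% and 3.44% of all rows. The co-activator *ppargc1a*, which drives mitochondrial biogenesis in mammals, was one of those with lower levels: its log2 fold change was -0.81 (SE 0.25, edgeR adjusted p = 0.360) in LR, -0.66 (SE 0.38) in MR and -1.12 (SE 0.31, edgeR adjusted p = 0.263) in HR fish, and -0.85 (SE 0.31, edgeR adjusted p = 0.552) in LG and -0.23 (SE 0.24) in HG fish. The mitochondrial protease *lonp1* had 0.71 (SE 0.25, edgeR adjusted p = 0.330) in MR fish.

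The respiratory chain and ATP synthase, whose core subunits the mitochondrial ribosome makes, had nuclear-encoded members with medians of -0.16 in LR, 0.13 in MR and -0.09 in HR fish, and of -0.09 in LG and 0.00 in HG fish (77 genes). In LR fish 11 of the 77 had lower and 1 higher levels at an unadjusted p under 0.05 (4.29% and 4.56% of all rows), and none was called. Pairs of these 77 genes had a median correlation of 0.363 over the 42 fish, so the genes counted are not independent. The median of the mitochondrial ribosomal proteins in LR fish was -0.01. Cytosolic ribosomal proteins had medians of -0.03, 0.03 and -0.07 in LR, MR and HR fish, and of -0.07 and 0.01 in LG and HG fish. In HR fish 2 of the 76 cytosolic ribosomal proteins tested were above 0 (49.9% of all rows), and none had an unadjusted p under 0.05. In LG fish 5 of 76 were above 0 (51.3% of all rows), and 1 had a higher level at that p (5.01% of all rows). Their pairs had a median correlation of 0.881 over the 42 fish, so these counts are not of independent genes.

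**Figure D4:**
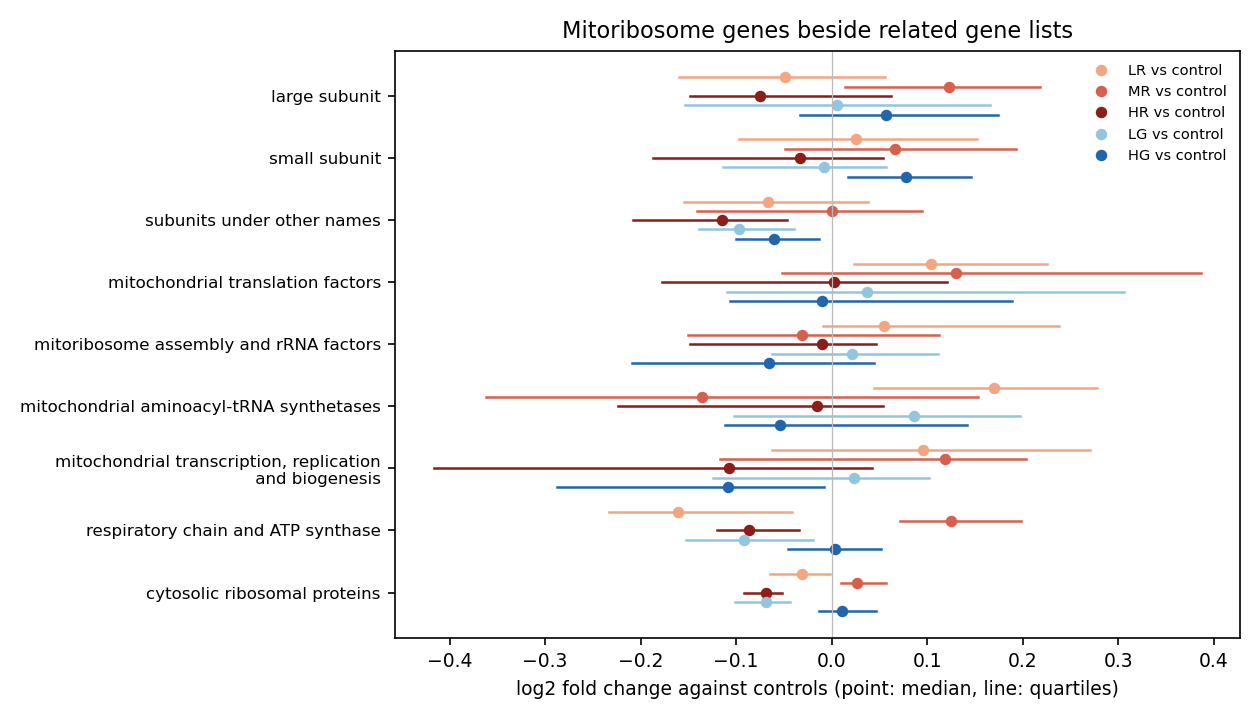
Log2 fold change against controls (horizontal axis) of each gene list in LR, MR, HR, LG and HG fish, with points for the median and lines for the quartiles of the list. The median of the large-subunit members is highest in MR fish at 0.12, and the lowest median of the respiratory chain and ATP synthase list is -0.16 in LR fish.

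Across the 42 fish the levels of the members followed each other only weakly. The Pearson correlation of log2 CPM between pairs of the 69 members over 1 CPM had a median of 0.127 (2346 pairs, quartiles -0.01 and 0.257), and 73.3% of pairs were above 0. The median was 0.129 within the large and 0.132 within the small subunit. Between members and the 25272 other rows over 1 CPM it was -0.00. For the 77 respiratory chain and ATP synthase genes the median was 0.363, and for 76 cytosolic ribosomal proteins 0.881. These pairs share libraries and their depth, and the cytosolic ribosomal proteins have far more reads, so less of their spread is counting error. With group means removed the median of the members was 0.129. Without the 2 fish farthest from the controls over all rows above 1 CPM, LG fish 1 and MR fish 1, it was 0.109.

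The members most like the rest of the family were *mrps34* (r = 0.665 with the mean of the other 68 over the 42 fish), *mrps27* (0.650) and *mrpl37* (0.617). The least like were *mrpl40* (-0.08), *mrps35* (-0.01) and *mrpl12* (0.01). *mrpl12*, the member with the most reads, was also in the pair with the lowest correlation, -0.50 with *mrpl44* over the 42 fish. Leaving aside the *mrpl10* transcripts, the closest pair was *mrpl35* and *mrpl4*, with 0.627.

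**Figure D5:**
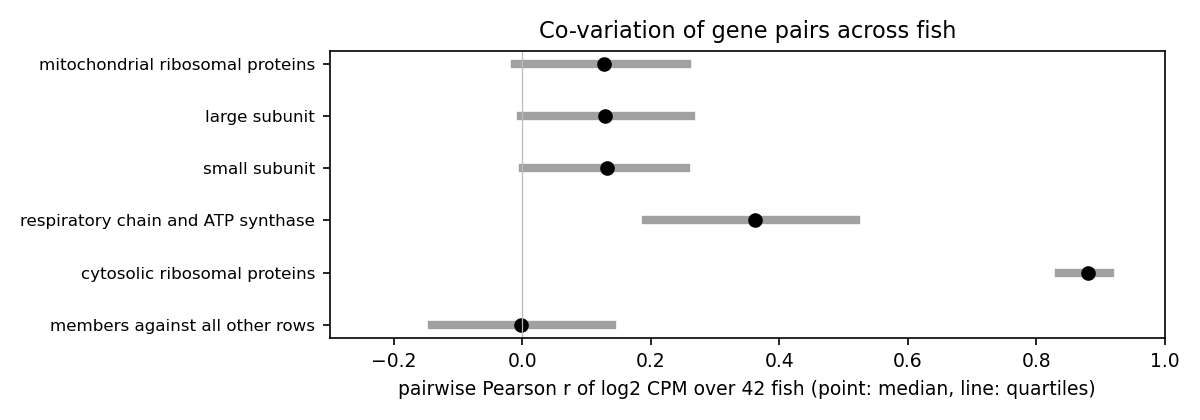
Pearson correlation of log2 CPM over the 42 fish between pairs of genes (horizontal axis), with points for the median and lines for the quartiles over the pairs of each list. The median is 0.127 for the mitochondrial ribosomal proteins, 0.363 for the respiratory chain and ATP synthase and 0.881 for the cytosolic ribosomal proteins.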

How the data were processed

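Liver RNA libraries of 42 fish were analysed, with groups taken from the sample labels. Per the labels and methods, the authors mapped reads to a Trinity assembly with Bowtie2 2.1.0, keeping a single best hit, and counted reads per transcript with SAMtools 0.1.18, so reads of near-identical paralogues (the trout genome descends from a duplication) may be split. The deposited values are raw counts per transcript in 5 tables, 1 per exposed group, each with the same 12 control columns. Every listed transcript exceeded 1 CPM in at least 3 fish of its table. No genome coordinates, transcript lengths or sequences were used here.

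Counts were summed per zebrafish gene identifier, and transcripts without one stayed rows of their own. The *bhmt* identifier was the exception: its 3 member transcripts were summed apart from the 28 that do not name a mitochondrial ribosomal protein. A row was tested where 6 or more of the compared fish had 1 read or more, using edgeR 4.0.16 (R 4.3.3): TMM scaling, quasi-likelihood F-test, 2-sided, Benjamini-Hochberg adjustment over all rows and a call under 0.1. Standard errors (SE) were computed from the log2 fold change and the F statistic of the test, and the intervals are 95% t intervals built on them. Single values were also tested by exact 2-sided permutation of mean log2 CPM (prior count 2), over 18564 splits for 12 against 6 fish and 924 for 6 against 6. Comparisons between exposed groups used transcripts listed in both tables. CPM came from the scaled library sizes of each comparison, or of all 42 fish on transcripts listed in all 5 tables. The quasi-likelihood test was also run on simulated counts with changes of 2-fold or more in rows averaging over 1 CPM. The share of these changes that it found is not given here, and the run does not cover smaller changes or lower rows.

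Members named in the text were, by rule, the 4 with the smallest p in each comparison with controls, the 5 highest and 3 lowest in controls, and those with transcripts of 2 components, which came to 22, with those under an unadjusted p of 0.05 between exposed groups given as well. The members, the gene lists and the tests were chosen with earlier results of these data known. Alternatives were other size factors, no filter, a filter on more than 1 CPM in at least 6 fish, the exact test of edgeR, DESeq2 1.42.0, a call under 0.05, Trinity transcripts in place of sums, the replicate number as a block, 1 fit over all groups, each fish left out, and, added after seeing the data, the *mrpl33* transcripts summed with the transcripts annotated as *bhmt* left out.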

Additional observations from a re-analysis of the deposited data

Results flagged for a closer look

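In 25 groups of 6 fish examined among the named values, 4 held a fish that stood apart from the others by Dixon's criterion, where chance gives about 1 in 20. The sum over members was 340.9 CPM in MR fish 1, against 434.3 CPM in the next lowest MR fish and 489.0 CPM in the highest. MR fish 1 also lay far from the control means over all rows above 1 CPM. Its median absolute log2 deviation was 0.554 over these rows and 0.388 over the members. The *mrpl33* transcript seq1 was at 0.524 CPM in LR fish 2, the lowest of its group, with the next at 0.649 CPM. *mrpl48* was at 2.77 CPM in HR fish 4, with the next at 4.28 CPM, and its log2 fold change of -0.23 against controls was -0.14 without that fish. The *mrpl33* transcript seq12 was at 1.49 CPM in HG fish 2, the highest of its group, with the next at 1.07 CPM. None of these members was called with or without the fish.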

How the results depend on the processing

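The number of members called was 0 in all 9 comparisons under every alternative run, including each fish left out. Under the alternatives 962 values kept their side of the threshold or moved by less than the spread, 1 moved further and 0 reversed. The 962 include values that could not change, since a call under 0.05 cannot add members where none was called under 0.1. They also include medians near 0 that changed sign by less than the spread. The one that moved was the median log2 fold change of the members between HG and LG fish, 0.07, which ranged from 0.027 to 0.15 when single fish were left out, the highest without LG fish 1. The other medians ranged from -0.06 to 0.01 for LR, 0.09 to 0.15 for MR, -0.09 to -0.04 for HR, -0.10 to 0.04 for LG and 0.04 to 0.10 for HG fish against controls. They ranged from -0.04 to 0.10 for LR over LG, -0.16 to -0.06 for HR over HG and -0.06 to 0.00 for HR over LR. The medians of LR and LG against controls, LR over LG and HR over LR thus lay near 0 and changed sign in some runs. The replicate numbers do not pair fish: same-numbered fish had correlations of their deviations from -0.36 to 0.47, and 9 of 54 correlated best with their own number. With the replicate number as a block, 0 members were called in all 9 comparisons, the median log2 fold change was 0.09 in MR and 0.08 in HG fish, and the rows called numbered 0 in LR and 4 in HR fish, against 6 and 2 without it. Over all rows, the quasi-likelihood test called 6, 0, 2, 0 and 0 against controls in LR, MR, HR, LG and HG fish, where the exact test of edgeR called 76, 363, 253, 172 and 17 and DESeq2 126, 361, 166, 32 and 16. Depth limits the low members: the *mrpl33* transcript seq12 rested on 10.4 reads per control library and *mrps2* on 15.3.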
